A study of Mus musculus with 16 samples.

Results

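Genes of the dopamine-receiving neurons of the striatum were followed in the brain and liver of 8 male mice: Drd2, Adora2a, Ppp1r1b, Pdyn, Tac1, Rgs9, Pde10a, Adcy5 and Gpr6. All probes carrying 1 of these 9 symbols in the platform's probe table were taken, which gave 11 probes for 8 genes among 25697 probes on the array. Ppp1r1b had 3 probes, Pdyn had 2 and the others had 1, while Adora2a, the adenosine receptor, had no probe listed and was not analysed here. Where a gene had several probes they are lettered from the brightest in brain (probe A).

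The mice were labelled strain C57BL/6J, aged 17 weeks, with the allele Pts-R15C-ki in Pts, the gene of an enzyme that makes tetrahydrobiopterin. The allele name marks a knock-in of R15C, and the series concerns mildly reduced tetrahydrobiopterin synthesis and body fat. The 4 groups held 4 single-colour Illumina bead arrays each: homozygous brain, wild-type brain, homozygous liver and wild-type liver. Each mouse gave 1 brain and 1 liver array, homozygous and wild-type mice were different animals, and the labels name neither the part of the brain nor any treatment.

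Tetrahydrobiopterin is the cofactor of tyrosine hydroxylase, the enzyme that limits dopamine synthesis, and dopamine from the midbrain acts on the medium spiny neurons of the striatum. These neurons form a direct pathway, rich in the D1 receptor, dynorphin and substance P, and an indirect pathway, rich in the D2 receptor, the adenosine A2a receptor and enkephalin. Both receptor classes act through cyclic AMP, which adenylyl cyclase makes and phosphodiesterases remove, and in rodents loss of dopamine input changes the levels of several of these peptide and receptor transcripts. The comparison of genotypes asks whether the transcripts of these neurons differ in mice with the altered enzyme.

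Promoter sequences are given for 4 of the genes, Rgs9, Pdyn and Tac1 because their signals differed most between brain and liver on a single or brightest probe among genes with a listed promoter, and Gpr6 because its genotype estimate in brain was the lowest with the processing used here. Each runs 5′ to 3′ on the gene's strand, from 250 bases before to 50 bases after the RefSeq start on GRCm38.p6, and where a gene had several starts the most upstream is shown. Capitals mark the half-site of the cyclic AMP response element (TGACG on either strand, within which the full element TGACGTCA holds 2 overlapping half-sites) and the TATA box letters TATAAA on either strand.
Rgs9 (chr11:109298132-109298431, minus strand): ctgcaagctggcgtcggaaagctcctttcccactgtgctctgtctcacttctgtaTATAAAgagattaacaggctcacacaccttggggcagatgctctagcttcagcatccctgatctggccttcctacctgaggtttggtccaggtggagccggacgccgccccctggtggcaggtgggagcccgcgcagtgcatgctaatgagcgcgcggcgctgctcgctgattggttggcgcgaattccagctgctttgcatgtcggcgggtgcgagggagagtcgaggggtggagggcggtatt
Pdyn (chr2:129699889-129700188, minus strand): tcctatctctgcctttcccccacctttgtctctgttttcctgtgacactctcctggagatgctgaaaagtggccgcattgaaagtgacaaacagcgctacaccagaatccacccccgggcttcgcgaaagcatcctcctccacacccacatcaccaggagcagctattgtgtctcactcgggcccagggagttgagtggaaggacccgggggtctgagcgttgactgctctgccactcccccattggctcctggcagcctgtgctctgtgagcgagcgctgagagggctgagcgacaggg
Tac1 (chr6:7554811-7555110, plus strand): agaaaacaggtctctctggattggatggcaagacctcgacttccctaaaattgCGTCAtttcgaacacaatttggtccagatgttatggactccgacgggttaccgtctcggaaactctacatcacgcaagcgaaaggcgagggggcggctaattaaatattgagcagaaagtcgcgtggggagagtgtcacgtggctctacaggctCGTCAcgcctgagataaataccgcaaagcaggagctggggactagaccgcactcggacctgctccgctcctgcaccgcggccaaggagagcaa
Gpr6 (chr10:41072241-41072540, minus strand): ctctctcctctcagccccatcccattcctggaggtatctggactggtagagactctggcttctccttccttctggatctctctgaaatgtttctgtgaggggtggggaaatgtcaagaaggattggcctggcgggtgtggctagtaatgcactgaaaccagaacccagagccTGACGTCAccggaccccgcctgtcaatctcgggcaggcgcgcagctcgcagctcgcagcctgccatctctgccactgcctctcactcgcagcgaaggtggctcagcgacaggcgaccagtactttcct

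The Gpr6 window held the full element once, which 1.79% of 32851 promoter windows in the RefSeq table held. The Tac1 window held 2 separate half-sites, and 20.8% of all windows held at least 1. Rgs9 had the TATA letters once, as had 13.6% of all windows. Of the 9 genes, 7 had a window in the table, and the windows of Drd2, Pdyn, Pde10a and Adcy5 held none of these letters. A match is a run of letters and no evidence of binding.

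Between 13241 and 14222 probes were detected on the homozygous brain arrays and between 13302 and 14576 on the wild-type ones, against 11785 to 12315 and 11825 to 12170 in homozygous and wild-type liver (detection p under 0.05). The mean log2 signal of 6 tested neuron markers was 11.89 to 12.11 in homozygous and 11.94 to 11.99 in wild-type brain, and that of 7 tested hepatocyte markers was 12.99 to 13.01 in homozygous and 12.77 to 13.01 in wild-type liver. Markers of dopamine neurons (6 of 8), hypothalamus (6 of 7) and cerebellum (4 of 5) with a probe were tested in brain, so the striatal genes were read in RNA of a tissue piece that held other regions too. In such RNA, fewer cells of a type and less RNA per cell cannot be told apart. Brain arrays were split into 2 sets of 4 at the median of their brightness, the 75th percentile of deposited signal. The 4 dimmer ones were homozygous mice 3 and 4 and wild-type mice 2 and 4. The 4 brighter ones were homozygous mice 1 and 2 and wild-type mice 1 and 3. The targeted gene Pts did not pass in limma on either of its 2 probes. The differences on probes A and B, homozygous over wild type, were 0.39 (SE 0.15) and 0.69 (SE 0.19) in brain (adjusted p = 1 for both) and 0.58 (SE 0.12, adjusted p = 0.054) and 0.90 (SE 0.20, adjusted p = 0.0624) in liver. Homozygous and wild-type arrays overlapped on probe A in brain. They did not overlap on probe B in brain (7.07 to 7.66 against 6.37 to 6.94) or on either probe in liver. Of all tested probes, 2.06% in brain and 13.0% in liver did not overlap.

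Most of these genes were detected in brain and few in liver. Of the 11 probes, 9 were detected on all 8 brain arrays, Gpr6 on 7 of 8, and Adcy5, the main striatal adenylyl cyclase, on 0 of 16 arrays. The Adcy5 probe read 134 to 140 in homozygous and 130 to 144 in wild-type brain as deposited signal, which was not well above background, so nothing is said here of its level. In liver, the brighter Pdyn probe and the probes of Tac1, Pde10a and Gpr6 were detected on 0 of 8 arrays, Rgs9 on 1 and Drd2 on 3. Ppp1r1b probe A was detected on all 8 liver arrays, Ppp1r1b probe B and Pdyn probe B on 6 and Ppp1r1b probe C on 4.

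**Figure D1:**
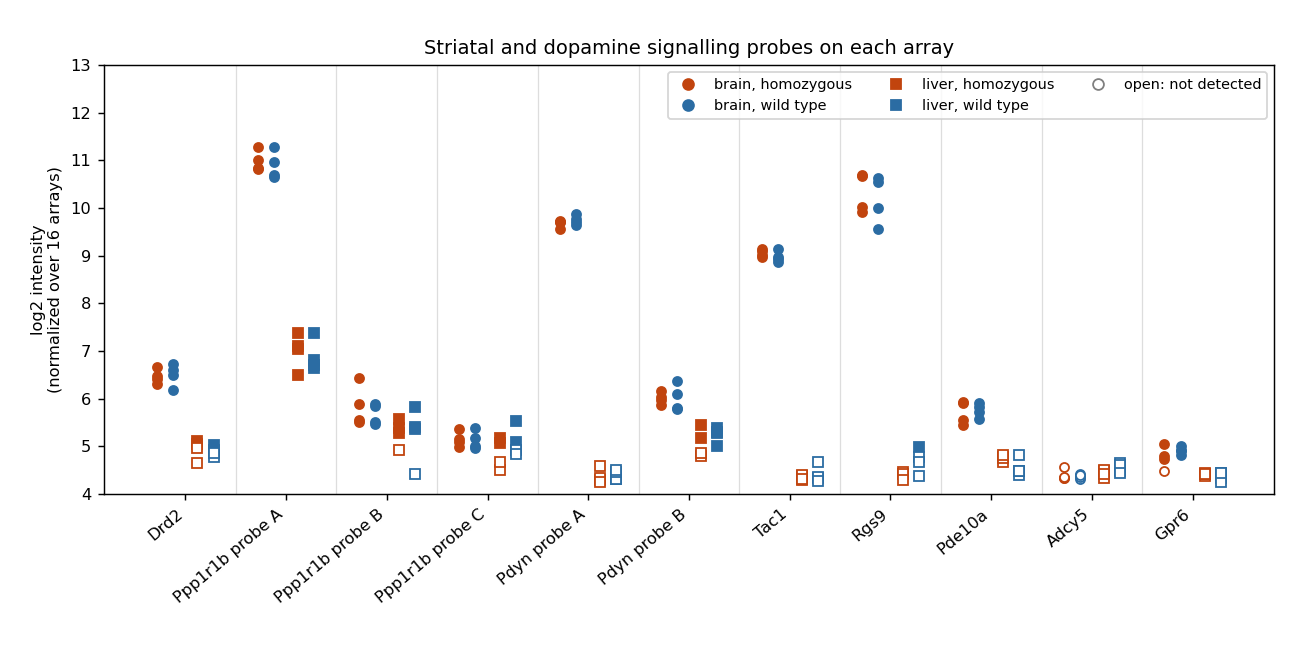
Each point is 1 array, with the log2 intensity after background correction and quantile normalization over all 16 arrays on the vertical axis and the 11 probes on the horizontal axis. Filled points were detected above the negative controls and open points were not. Rgs9, Ppp1r1b probe A, Pdyn probe A and Tac1 stood far above their liver signal in every brain, Adcy5 was open on all 16 arrays, and the genotypes overlapped within each tissue.

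Brain and liver differed widely for the brightest striatal probes (limma on all 16 arrays, brain over liver). Rgs9, the GTPase-activating protein that shortens signalling by D2-class receptors, averaged 10.25 in brain and 4.55 in liver, where it was detected on 1 of 8 arrays, that of wild-type mouse 1. The log2 difference of 5.70 (SE 0.16, adjusted p = 2.22e-16) is therefore taken against a liver signal that was mostly not above background. Pdyn, the precursor of the dynorphin opioid peptides, averaged 9.71 in brain and 4.38 in liver on probe A, and was at least 27-fold higher in brain (adjusted p = 6.23e-21). Tac1, the precursor of substance P and neurokinin A, averaged 9.01 in brain and 4.38 in liver and was at least 16.7-fold higher (adjusted p = 5.7e-20). The bound sets the brain mean against the lowest detected signal of each liver array, or the probe's own signal where that was higher. Rgs9, Pdyn probe A and Tac1 entered this comparison through brain alone, so the filter favoured their calls, as set out below.

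Ppp1r1b, the phosphoprotein that inhibits protein phosphatase 1 once protein kinase A has acted on it, was the exception among the bright probes, since probe A was detected on all 8 liver arrays. It averaged 10.94 in brain and 6.94 in liver, a difference of 4.00 (SE 0.14, adjusted p = 9.4e-15). Its other probes gave other sizes, 0.49 (SE 0.18, adjusted p = 0.0169) on probe B and 0.17 (SE 0.12, adjusted p = 0.204) on probe C, which did not pass. Probes B and C had signals of 165 to 242 and 148 to 180 in brain, against 1837 to 2217 on probe A, so the tissue difference for Ppp1r1b depended on the probe. Pdyn showed the same spread between probes, with 0.85 on probe B (SE 0.11, adjusted p = 1.37e-06).

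The receptors and the phosphodiesterase had smaller differences on dim probes. Drd2, the D2 dopamine receptor, averaged 6.49 in brain and 4.92 in liver, a difference of 1.56 (SE 0.09, adjusted p = 2.56e-11), and was detected on 3 of 8 liver arrays. Pde10a, which breaks down cyclic nucleotides in medium spiny neurons, averaged 5.73 in brain and 4.65 in liver and was at least 1.71-fold higher (adjusted p = 2.97e-09). Gpr6, an orphan receptor of indirect pathway neurons that raises cyclic AMP, averaged 4.84 in brain and 4.39 in liver, where it was not well above background, and no fold is given because its brain mean did not exceed the lowest detected signals of the liver arrays, averaged as for the bound above. A probe entered this comparison if it was detected on at least 4 arrays of either tissue, and the probes of Drd2, Tac1, Rgs9, Pde10a and Gpr6 and Pdyn probe A entered through brain alone, so their calls were favoured by the filter and are not counted. Of the 4 probes detected on at least 4 arrays in both tissues, which belong to 2 genes (Ppp1r1b and Pdyn), 3 were higher in brain. Of all 15325 probes tested, whichever tissue admitted them, 41.9% were higher and 42.3% lower in brain by the same test, and 10.1% were detected on all 8 brain and 0 of 8 liver arrays.

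No genotype difference was detected for these genes in brain: of 10 tested probes of 7 genes, 0 passed the adjusted threshold of 0.05 and 0 had an unadjusted p under 0.05 (limma, smallest unadjusted p = 0.207). Over all 13862 tested brain probes, 0.0144% were called and 3.17% had an unadjusted p under 0.05, so a count of 0 is close to the background. The estimates ran from -0.21 to 0.16 on the log2 scale (homozygous over wild type), 6 above and 4 below 0, with a median of 0.01, against 0.005 for all tested probes. Homozygous and wild-type arrays overlapped for each of the 10 probes, and 2.06% of all tested probes did not overlap.

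Tac1 and Pdyn probe A, of the peptide precursors, had the narrowest intervals of the 10 probes. Tac1 read 9.15, 9.27, 9.19 and 9.31 in homozygous brain (mice 1 to 4), against 9.11, 9.05, 9.15 and 9.30 in wild-type brain. The groups overlapped, and the difference was 0.08 (SE 0.10), with a 95% interval from 0.90-fold to 1.24-fold of wild type. Pdyn on probe A read 9.83, 9.69, 9.84 and 9.83 in homozygous brain, against 9.82, 9.88, 9.78 and 9.97 in wild-type brain. Homozygous mouse 2 was the lowest of the 8 and the other 3 homozygous arrays lay within the wild-type range. The difference was -0.07 (SE 0.10, 0.82-fold to 1.11-fold), and probe B gave 0.0003 (SE 0.14).

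Among the receptors, Drd2 read 7.03, 6.85, 6.78 and 6.69 in homozygous brain, against 7.09, 6.86, 6.97 and 6.58 in wild-type brain. The homozygous values lay inside the wild-type range, with a difference of -0.04 (SE 0.13, 0.79-fold to 1.20-fold). Drd2 lies on chromosome 9 within 5 Mb of Pts by the RefSeq gene table, and no other of the 9 genes lies on that chromosome. Gpr6 read 4.95, 5.01, 5.35 and 4.59 in homozygous brain, against 5.31, 5.06, 5.21 and 5.16 in wild-type brain. Homozygous mouse 3 was the highest of all 8 and homozygous mouse 4 the lowest, and on that array Gpr6 was not detected. The difference was -0.21 (SE 0.15, 0.68-fold to 1.10-fold), but -0.08 without homozygous mouse 4 and -0.34 without homozygous mouse 3. It was -0.04 without background subtraction and -0.06 with the authors' normalized values.

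Among the signalling proteins Rgs9 varied most between mice. It read 10.09, 10.00, 10.66 and 10.68 in homozygous brain, against 9.70, 10.55, 10.07 and 10.63 in wild-type brain. Both genotypes held a lower and a higher pair, and the difference was 0.12 (SE 0.24, 0.76-fold to 1.56-fold). Ppp1r1b on probe A read 10.78, 10.80, 10.93 and 11.16 in homozygous brain, against 10.65, 11.16, 10.68 and 10.91 in wild-type brain. The groups overlapped (0.07, SE 0.15, 0.84-fold to 1.31-fold), as they did on probe B at 0.16 (SE 0.20) and probe C at 0.02 (SE 0.15). Pde10a read 6.31, 6.33, 5.85 and 5.94 in homozygous brain, against 6.24, 5.97, 6.13 and 6.31 in wild-type brain. Homozygous mice held both the highest and the lowest values (-0.06, SE 0.14, 0.77-fold to 1.20-fold). In limma the adjusted p was 1 for all 10 probes.

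**Figure D2:**
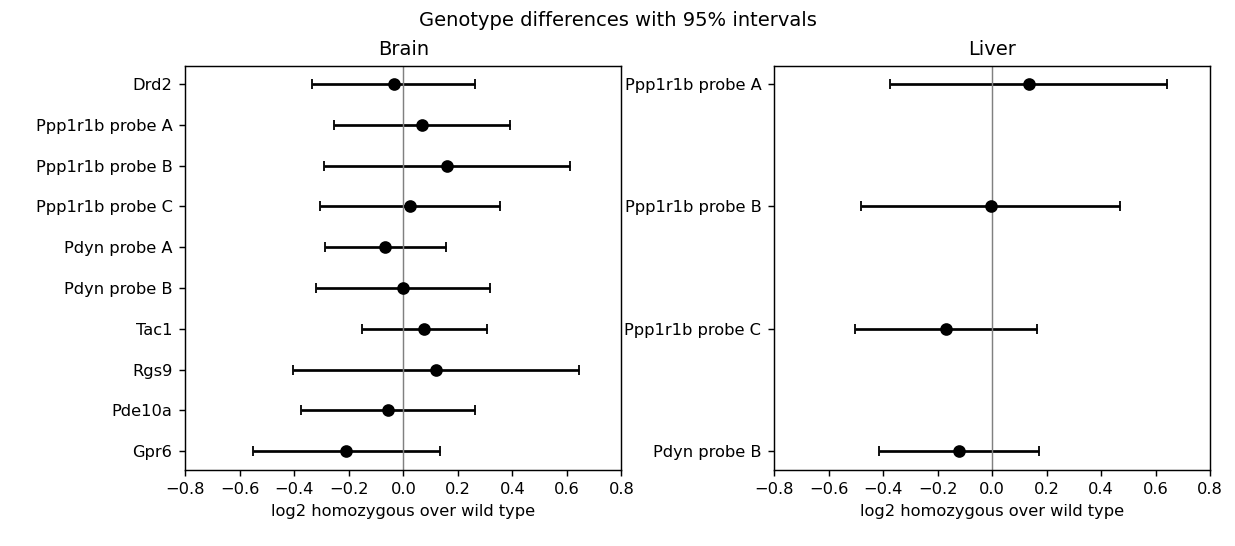
Points are log2 differences, homozygous over wild type, and bars are 95% intervals of the limma fit (4 arrays per genotype) for the 10 probes tested in brain and the 4 tested in liver. The bars of all 14 probes cross 0, with Rgs9 the widest in brain at -0.40 to 0.64 and Pdyn probe A the narrowest at -0.29 to 0.15.

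Rgs9 and Ppp1r1b differed between the dimmer and the brighter brain arrays, sets that were defined from the data by the 75th percentile of the deposited signal and are not groups of the study. The 4 dimmer brain arrays read 10.55 to 10.68 for Rgs9, against 9.70 to 10.09 on the 4 brighter arrays, with 2 mice of each genotype in each set. The sets did not overlap, and the difference was 0.66 (SE 0.10, adjusted p = 0.000917, limma with genotype in the model). After normalization, Ppp1r1b probe A was higher on the dimmer arrays by 0.32 (SE 0.09, adjusted p = 0.0248) while probe B was lower by 0.50 there (SE 0.12, adjusted p = 0.00899). Probes of 1 gene thus moved in opposite directions on the normalized scale. Tac1 at 0.04 (SE 0.09), Pdyn probe A at 0.10 (SE 0.08), Gpr6 at -0.08 (SE 0.15), Drd2 at -0.25 (SE 0.09, adjusted p = 0.0623) and Pde10a at -0.24 (SE 0.11, adjusted p = 0.128) did not pass.

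Such differences were common: 3 of the 10 probes passed, against 16.2% of all tested brain probes that were higher on the dimmer arrays and 16.4% that were lower. In deposited signal, before any normalization, Rgs9 read 1367 to 1683 on the dimmer arrays and 1127 to 1517 on the brighter ones, whereas Tac1 read 549 to 663 on the dimmer and 755 to 878 on the brighter arrays. Ppp1r1b probe A read 1837 to 2044 on the dimmer and 2019 to 2217 on the brighter arrays. Probe B read 165 to 178 on the dimmer and 206 to 242 on the brighter arrays. The higher reading of probe A on the dimmer arrays therefore appeared only after normalization. The call for Ppp1r1b probe A ended with median scaling of the arrays (0.11, adjusted p = 0.33) and in 5 of 8 fits that left out 1 array, those without wild-type mouse 1, 2 or 3 or homozygous mouse 1 or 4 (adjusted p = 0.0559 to 0.0738). Median scaling moved the median of all probes to -0.21, and under it Tac1 turned to -0.26 (SE 0.10, adjusted p = 0.0444), while Rgs9 stayed higher at 0.42 (SE 0.11, adjusted p = 0.00739). Whether RNA quality, labelling or the dissected piece differed between the sets was not tested.

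**Figure D3:**
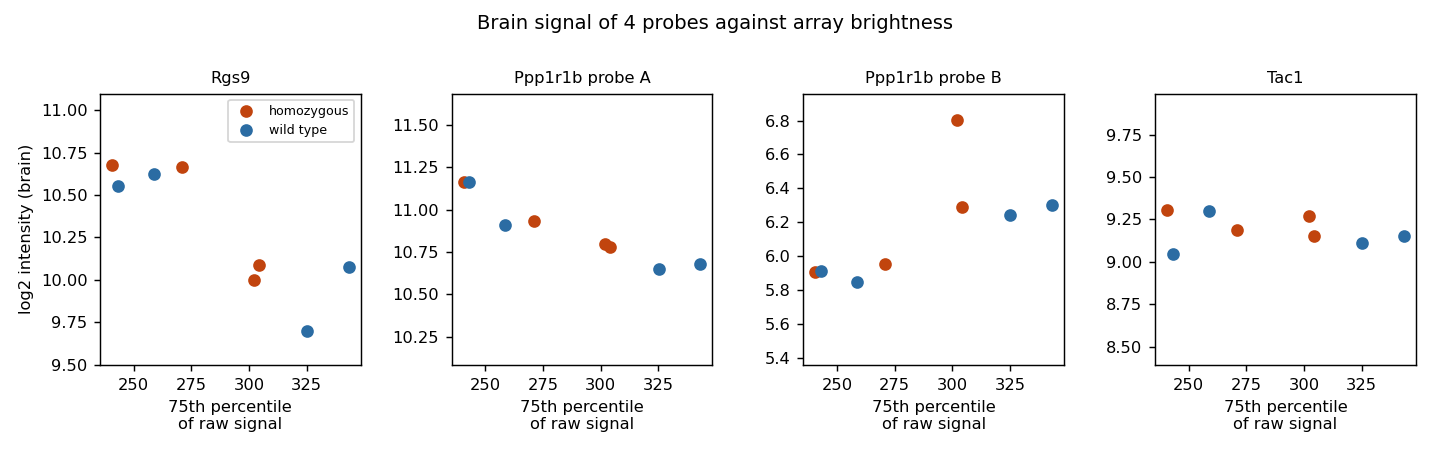
Each point is 1 brain array, with the 75th percentile of its deposited signal on the horizontal axis and the log2 intensity of the probe after normalization within brain on the vertical axis, over the same span of 1.6 in each panel. Rgs9 and Ppp1r1b probe A were higher on the 4 dimmer arrays, Ppp1r1b probe B was lower there, and Tac1 changed by 0.04.

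Each brightness set held 2 mice of each genotype, so a block for brightness leaves the estimates as they are and changes only their errors, which were smaller for all 10 probes: Rgs9 stood at 0.12 (SE 0.10, adjusted p = 0.809), Drd2 at -0.04 (SE 0.09, adjusted p = 0.954) and Gpr6 at -0.21 (SE 0.15, adjusted p = 0.776), and 0 of 10 probes passed. Within the 4 dimmer arrays Rgs9 differed by 0.08 (SE 0.12) and within the 4 brighter arrays by 0.16 (SE 0.15). Gpr6 differed by -0.14 (SE 0.26) within the dimmer and by -0.28 (SE 0.12) within the brighter arrays, and Drd2 by 0.02 (SE 0.15) within the dimmer and by -0.09 (SE 0.13) within the brighter arrays. Pde10a differed by -0.24 (SE 0.16) within the dimmer and by 0.13 (SE 0.12) within the brighter arrays. Within each set, 0 of the 10 probes passed in limma.

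The within-genotype SD in brain ran from 0.08 for Pdyn probe A and 0.09 for Tac1 to 0.40 for Rgs9. These stood at percentiles 2.98, 5.44 and 91.5 among tested brain probes. The median over all 13862 probes was 0.21. Across the 8 brain arrays, after centring on each genotype's mean, Rgs9 correlated with Ppp1r1b at Pearson r = 0.83 (probe A) and with Drd2 at r = -0.83, the highest and lowest of 21 pairs of genes. These arrays share the brightness sets described above, so the correlations describe the arrays and carry no test. The 6 genes whose centred values were most like the mean of the 7 tested genes were Notch1, Adssl1, Sipa1l1, Kmt5b, Ift172 and Arhgef19 (r = 0.968 to 0.996 over 8 arrays), from 9555 genes of which 171 had r over 0.9. The centred mean of the 7 genes was itself -0.003 to 0.077 on the dimmer arrays and -0.058 to -0.012 on the brighter ones. All 6 genes had higher means on the dimmer arrays, by 0.19 to 0.49, a direction that followed from how they were picked. By genotype 0 of 6 passed (adjusted p = 1, limma).

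In the wider circuit no genotype difference was detected in brain. Of 41 tested genes on 5 further lists, 0 rose, 0 fell and 0 had an unadjusted p under 0.05 in limma, with a median of 0.03. In direct pathway neurons (3 of 5 genes with a probe tested, median 0.11), the D1 receptor gene Drd1 stood at 0.11 (SE 0.17), the transcription factor gene Isl1 was the highest at 0.21 (SE 0.12) and Ebf1 the lowest at 0.08 (SE 0.18). In indirect pathway neurons only Sp9 was tested, at 0.11 (SE 0.13), and the enkephalin precursor Penk had no probe listed. Among 17 tested genes of medium spiny neurons of both pathways the median was 0.03, with the retinoic acid receptor gene Rarb at 0.18 (SE 0.10) and the transcription factor gene Bcl11b at -0.14 (SE 0.12). Among 16 tested genes of dopamine receptor and cyclic AMP signalling it was 0.01, with Ppp1ca, a catalytic subunit of protein phosphatase 1, at 0.12 (SE 0.11) and Rgs7bp, which anchors RGS proteins at the membrane, at -0.18 (SE 0.40). Among 4 tested opioid, tachykinin and adenosine receptor genes it was 0.02, with the neurokinin receptor genes Tacr3 at 0.24 (SE 0.12) and Tacr1 at -0.01 (SE 0.15).

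Of 6 tested genes of the dopamine neurons themselves 0 passed (median -0.03), with the developmental transcription factor genes En1 at 0.22 (SE 0.16) and Nr4a2 at -0.06 (SE 0.20), tyrosine hydroxylase (Th) at -0.02 (SE 0.13) and the dopamine transporter gene Slc6a3 at -0.002 (SE 0.13). Over 14 lists of cell type markers, 0 of 68 tested genes passed in brain in limma, with list medians from -0.06 for choroid plexus to 0.22 for olfactory bulb. Of the 68 genes, 6 had an unadjusted p under 0.05, against 3.17% of all tested brain probes. These were Sp8, Avp, Opalin and P2ry12 above 0, and C1qa and Slc4a1 below 0. The microglia markers P2ry12 and C1qa stood at 0.49 (SE 0.16) and -0.48 (SE 0.20), and the blood marker Slc4a1 at -0.64 (SE 0.21). The mean of the 3 tested olfactory bulb markers was 7.04 to 7.28 in homozygous and 6.66 to 6.93 in wild-type brain, without overlap. Their differences ran from Doc2g at 0.19 (SE 0.14) to Sp8 at 0.44 (SE 0.15), and 0 of the 3 passed. This was 1 of the 14 lists looked at, and 2.06% of all tested brain probes did not overlap between genotypes. Oligodendrocyte markers averaged 10.74 to 10.93 in homozygous and 10.49 to 10.79 in wild-type brain, with overlap and a median difference of 0.10, from Mobp at -0.23 (SE 0.20) to Opalin at 0.84 (SE 0.33), both myelin protein genes. The striatal genes themselves averaged 8.28 to 8.37 in homozygous and 8.27 to 8.41 in wild-type brain, and the part of other cell types in their values was not tested.

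Some lists of the wider circuit also held genes that differed between the dimmer and the brighter brain arrays: of the 17 genes of medium spiny neurons, 2 were higher and 6 were lower on the dimmer arrays, and of the 16 genes of dopamine receptor and cyclic AMP signalling, 0 were higher and 8 were lower, beside 16.2% and 16.4% of all tested brain probes. Of the 3 direct pathway genes 1 was lower, and 0 passed of the 4 opioid, tachykinin and adenosine receptor genes, the 1 indirect pathway gene and the 6 dopamine neuron genes. Such differences were not particular to this circuit. Over the 14 lists of cell type markers, 4 of 68 tested genes were higher and 13 were lower on the dimmer arrays. Among the lower genes Syndig1l stood at -1.23 and Rgs7bp at -1.20, both past the threshold in limma (adjusted p = 9.43e-05 and 0.000262).

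**Figure D4:**
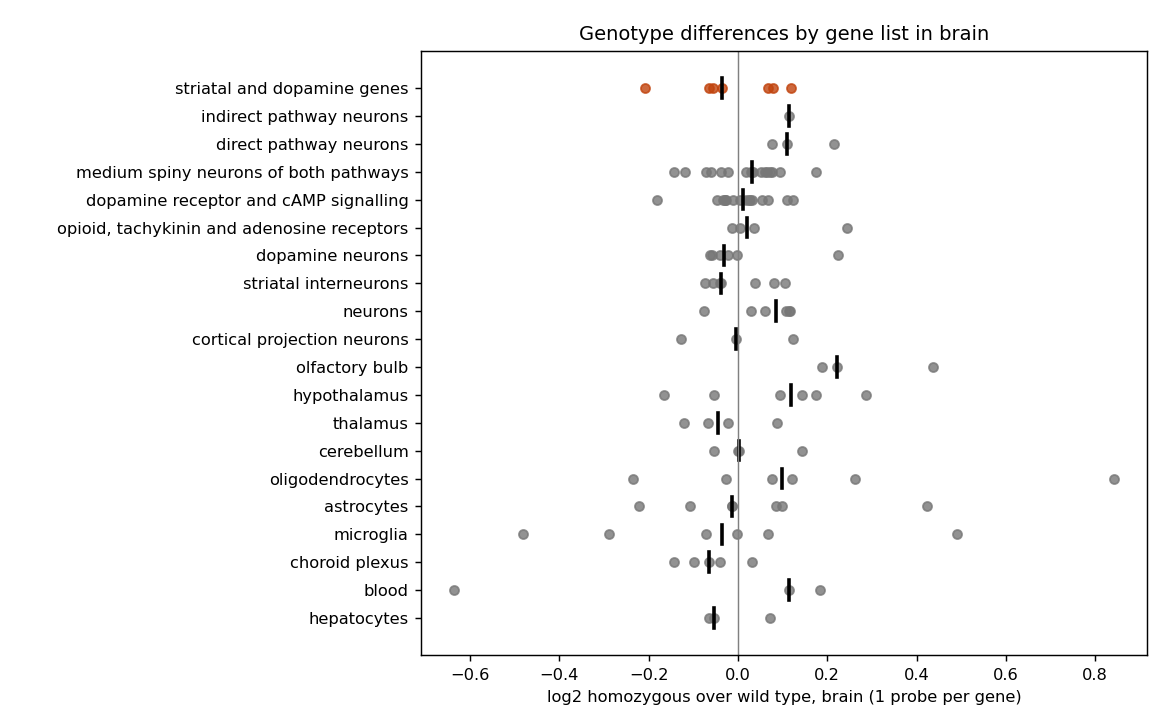
Each point is 1 gene tested in brain (its brightest tested probe), with the log2 difference, homozygous over wild type, on the horizontal axis and the gene list on the vertical axis, and black bars are list medians. The 7 striatal and dopamine genes, in colour, lie between -0.21 and 0.12.

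In liver, 4 probes of 2 genes were detected often enough to be tested, and 0 passed or had an unadjusted p under 0.05 in limma, where 0.903% of 11955 tested probes were called and 22.6% had an unadjusted p under 0.05. Ppp1r1b on probe A read 6.13, 6.78, 6.70 and 7.07 in homozygous liver, against 6.45, 6.28, 6.34 and 7.07 in wild-type liver. Mouse 4 of each genotype was the highest of its group and the groups overlapped, with a difference of 0.13 (SE 0.23, adjusted p = 0.754, 0.77-fold to 1.56-fold). Probe B gave -0.01 (SE 0.21), probe C -0.17 (SE 0.15) and Pdyn probe B -0.12 (SE 0.13), and homozygous and wild-type arrays overlapped for each of the 4, against 13.0% of all tested liver probes that did not. Of the further lists, 23 genes of 2 lists were tested in liver and 0 passed, with 4 at an unadjusted p under 0.05. The 9 tested medium spiny neuron genes had a median of 0.28, against 0.02 for all tested liver probes, with the kinase gene Dclk3 at 1.21 (SE 0.54, adjusted p = 0.219) and Gpr149 at -0.27 (SE 0.14). Their mean level was 5.26, 5.42, 5.90 and 5.90 in wild-type liver (mice 1 to 4), against 5.80 to 6.12 in homozygous liver. Wild-type mice 1 and 2 lay below the homozygous range, and wild-type mice 3 and 4 lay inside it. The 14 tested dopamine receptor and cyclic AMP signalling genes had a median of 0.08, with the calcineurin gene Ppp3ca at 0.25 (SE 0.10) and Cdk5 at -0.14 (SE 0.16). Of 29 tested marker genes in liver 1 passed, the microglial and macrophage complement gene C1qb, which fell by 0.99 (SE 0.17, adjusted p = 0.0442), and 12 had an unadjusted p under 0.05. The 5 tested microglia markers were among those 12, with a median of -0.53 and a mean level of 5.52 to 5.78 in homozygous and 6.14 to 6.29 in wild-type liver, without overlap. The 3 blood markers were also among them, from Slc4a1 at -0.44 (SE 0.16) to Hba-a1 at 0.73 (SE 0.15), and the part of such cells in the liver values of Ppp1r1b and Pdyn was not tested.

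The genotype effect in brain minus that in liver could be tested for the same 4 probes, and 0 passed in limma, where 0.105% of 10492 probes were called; 0 of the 4 and 11.0% of all had an unadjusted p under 0.05. For Ppp1r1b the difference of effects was -0.04 (SE 0.28) on probe A, 0.13 (SE 0.36) on probe B and 0.26 (SE 0.24) on probe C, and for Pdyn probe B it was 0.17 (SE 0.22). The intervals over the 4 probes ran from -0.64 to 0.88.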

How the data were processed

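Total RNA was hybridized as biotinylated cRNA, per the labels' protocols. The authors deposited linear bead intensity values, not normalized between arrays, with a detection p-value per probe, and a second table of intensity values normalized across the 16 arrays by a method not given in the sources used here. The submitters' processing notes name GenomeStudio 2011.1. Of 25697 probes, 23978 carried 1 symbol and 1719 none.

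Signals were background-corrected with nec of limma 3.58.1 (R 4.3.3, offset 16), quantile-normalized within tissue (over 16 arrays for brain against liver) and log2-transformed. Probes detected (p-value under 0.05) on 4 or more of a tissue's 8 arrays were tested: 13862 probes in brain, 11955 in liver. Genotypes were compared with lmFit and eBayes, with Benjamini-Hochberg adjustment over all tested probes. Precision is limited by 4 mice per genotype.

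The genes, the other lists and the alternatives were chosen with earlier results of these data known, and the comparison by brightness was added after seeing the data. Named beside the 9 genes were Pts, the highest and lowest gene of each further list (of the cell type markers, only some are printed), and the 6 genes most like their mean in brain; Drd1, Th, Slc6a3, Penk and Syndig1l were named after their values were seen. The labels' mouse identifiers pair brain and liver arrays, whose deviations from group means correlated at -0.001 to 0.12. List genes were read from the probe with the highest mean signal.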

Additional observations from a re-analysis of the deposited data

Results flagged for a closer look

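In homozygous brain, mouse 2 stood apart from the other 3 mice on Pdyn probe A, at 9.69 against 9.83, 9.83 and 9.84 for mice 1, 4 and 3. The gap took up more of the group's range than Dixon's 95% critical value for 4 samples. This was 1 of 28 groups of 4 examined, and chance alone marks about 1 in 20.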

How the results depend on the processing

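The count of these genes' probes called between genotypes was 0 under all 19 alternatives in brain and all 16 in liver, and 0 under all 20 for the difference of effects between tissues. These covered background correction, normalization (the authors' values included), the detection filter, variance model, brightness, and leaving out each array or wild-type mice 1 and 2. None of the 189 brain values and 61 liver values was called, the largest in size being 0.34 in brain and 0.31 in liver on the log2 scale, and 24 and 9 of them changed sign. With the replicate number as a block, 0 probes passed in brain and 0 in liver; homozygous and wild-type mice share only a number, and their deviations correlated at 0.56, -0.46, -0.51 and 0.42 in brain. With mouse as a replicate block, 9 probes passed between brain and liver, 6 of them admitted through brain alone, and 0 for the difference of effects. Brain over liver gave 9 under 19 of 20 alternatives and 10 with median scaling, where Ppp1r1b probe C passed at 0.32 (adjusted p = 0.0181). These counts include the 6 probes that the filter favoured. Under the same alternatives, 12425 to 12890 of all 15325 tested probes were called (main 12902). Between dimmer and brighter brain arrays 3 probes were called, 6 with median scaling, where Tac1 turned to -0.26, and 2 to 4 when 1 array was left out. Of all 13862 tested brain probes, 4522 were called in the main fit and 6465 with median scaling. When 1 array was left out, 3511 to 4207 were called. Over all probes, calls ranged from 0 to 5 in brain (main 2), 9 to 955 in liver (main 108, lowest without homozygous mouse 4, highest without wild-type mouse 3) and 1 to 129 for the difference of effects (main 11, lowest without the wild-type mouse 1 brain array, highest without the wild-type mouse 3 liver array). Signals near background, as for Adcy5, Gpr6 and all but the brightest probes in liver, limit what a difference can show.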
